A study of Mus musculus with 4 samples.

Results

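SOX3 binding was examined at 10 genes of the Hippo pathway, out of 22367 protein-coding genes with the same measurement. 6 of them encode the pathway's nuclear effectors, namely Yap1, Wwtr1 (the gene of TAZ) and the TEAD genes Tead1, Tead2, Tead3 and Tead4, and 4 are textbook targets of those effectors, namely Ctgf, Cyr61, Amotl2 and Lats2. The rule names the genes by their place in the pathway, and it was written with peaks of these data, such as those at Ctgf, already known. Each peak that overlapped a gene body or the 50 kb to either side of it was taken as a peak of that gene. The 10 windows held 67 peaks.

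The samples were neural progenitor (NP) cells made from the mouse ES cell line R1, which was kept as a monolayer in N2B27 medium, in which ES cells take a neural fate, until day 4. Chromatin was immunoprecipitated with an antibody to the human SOX3 protein (R&D hSOX3) in 3 biological replicates. All of them had the same genotype and treatment, so the series holds no contrast between conditions and the comparisons here are between genes. A single input library has no list of peaks here and was not analysed here, and no expression values were used, so the NP identity of the cells was not checked against marker genes.

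Hippo signalling is a kinase cascade that restrains growth. Active LATS kinases phosphorylate YAP and TAZ, which then stay in the cytoplasm or are degraded. When the kinases are inactive, YAP and TAZ enter the nucleus and act as coactivators of the TEAD proteins, which bring the DNA contact. Among the genes they switch on are Ctgf and Cyr61, both for secreted matricellular proteins, and Amotl2 and Lats2, whose products hold YAP back and so close a feedback loop. In the neural tube, YAP and TEAD activity is known for keeping progenitors in cycle, and SOX3 is one of the SOXB1 factors that mark the same progenitors.

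The lists gave 18816 peaks for replicate 1, 8096 for replicate 2 and 40543 for replicate 3, each with a position on the mouse genome build mm9 and a MACS score. MACS derives that score from the peak's p-value against the input, as -log10(p) multiplied by 10, and 50 was the lowest score of each list. Because the score grows with sequencing depth, and depth is unknown here, each score was read by its rank within its own replicate. Overlapping peaks were merged into 51271 sites, of which 10342 had a peak in at least 2 replicates and 5358 in every replicate. The authors report a larger number of sites common to their samples, and their list was not compared with the sites used here. Replicates 2 and 3 were more alike than the other pairs: in 34.5% of their overlapping pairs the peaks began at the same base, compared with 0.922% for replicates 1 and 2 and 1.63% for replicates 1 and 3. Whether these libraries share reads or processing cannot be told from the lists, so a site of replicates 2 and 3 may rest on less than 2 independent libraries, and a site of every replicate on less than 3. Sites of replicates 2 and 3 alone are named as such below.

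5 of the 10 genes had a site of every replicate in their window, namely Tead1, Tead2, Tead4, Ctgf and Lats2, with 1 such site each. Across all protein-coding genes the share was 28.8%. With peaks of score 100 or more, 2 members kept such a site (Tead1 and Lats2) beside 15.2% of all genes, and with the 8096 highest peaks of each list 3 did (Tead1, Ctgf and Lats2) beside 21.9%. 8 of the 10 genes had a site of at least 2 replicates (all but Yap1 and Tead3), compared with 46.4% of all genes. All 10 had a peak of some replicate, as did 90.6% of all genes, so a peak in a single list sets the members apart from few other genes. Long genes have longer windows, and per 100 kb of window the members held 0.299 sites of every replicate while all genes held 0.317. Counted by length, the members were thus close to all genes at the level of every replicate, where a site in overlapping windows counts for each gene. Among genes with windows within 10% of a member's length, 24.7% (for Ctgf and Cyr61) to 40.1% (for Tead1) had such a site. At the level of at least 2 replicates the members held 0.777 sites per 100 kb and all genes 0.616. No test was made of these counts, since 10 genes are not replicates of one another.

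Stretches of 5 sites are shown next, because the results turn on them: the 4 sites of every replicate outside untranslated regions, and the promoter site of Wwtr1, which had a peak in 2 replicates. Each is the stretch that all its replicates shared, or the middle 300 bases of it where it was longer, read from the plus strand of mm9. Capitals mark 3 kinds of short word on either strand. SOX words were AACAAA and AACAAT as well as GACAAA and GACAAT, POU words were the octamers ATGCAAAT and ATGCTAAT, and the TEAD word was GGAATG. A word on the minus strand appears as its reverse complement, such as TTTGTT for AACAAA.
The Tead1 intron 2 stretch lies at chr7:119967187-119967486, the Tead4 intron 2 stretch at chr6:128204772-128204924, the Ctgf upstream stretch at chr10:24310459-24310712, the stretch in the Lats2 window at chr14:58253074-58253373 and the Wwtr1 promoter stretch at chr3:57379930-57380077.
Tead1 intron 2: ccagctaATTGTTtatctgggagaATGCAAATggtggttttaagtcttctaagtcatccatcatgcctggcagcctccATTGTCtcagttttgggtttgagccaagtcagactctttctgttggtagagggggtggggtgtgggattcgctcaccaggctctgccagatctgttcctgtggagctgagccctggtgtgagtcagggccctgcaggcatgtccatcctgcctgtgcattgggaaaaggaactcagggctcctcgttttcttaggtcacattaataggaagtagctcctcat
Tead4 intron 2: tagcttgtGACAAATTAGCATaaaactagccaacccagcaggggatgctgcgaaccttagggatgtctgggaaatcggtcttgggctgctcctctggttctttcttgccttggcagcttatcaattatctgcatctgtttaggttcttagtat
Ctgf upstream: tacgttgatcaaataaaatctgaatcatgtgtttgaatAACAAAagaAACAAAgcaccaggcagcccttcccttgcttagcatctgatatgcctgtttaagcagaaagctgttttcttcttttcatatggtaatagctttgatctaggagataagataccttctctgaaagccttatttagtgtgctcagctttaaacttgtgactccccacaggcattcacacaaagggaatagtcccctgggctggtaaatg
Lats2 window: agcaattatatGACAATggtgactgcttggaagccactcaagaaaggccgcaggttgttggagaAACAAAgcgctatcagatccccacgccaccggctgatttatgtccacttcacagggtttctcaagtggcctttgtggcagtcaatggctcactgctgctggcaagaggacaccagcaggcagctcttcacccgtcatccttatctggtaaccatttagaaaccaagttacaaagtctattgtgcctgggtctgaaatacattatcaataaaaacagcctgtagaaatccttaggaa
Wwtr1 promoter: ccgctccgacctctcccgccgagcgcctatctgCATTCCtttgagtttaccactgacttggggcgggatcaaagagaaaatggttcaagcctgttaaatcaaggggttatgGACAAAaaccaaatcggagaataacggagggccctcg

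The Tead1 stretch has 2 SOX words around an octamer, and the Tead4 stretch has a SOX word that runs into an octamer. The Ctgf stretch carries a pair of AACAAA words with 3 bases between them, and the Lats2 stretch carries a GACAAT and an AACAAA. The Wwtr1 stretch is the one of the 5 with a TEAD word.

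**Figure D1:**
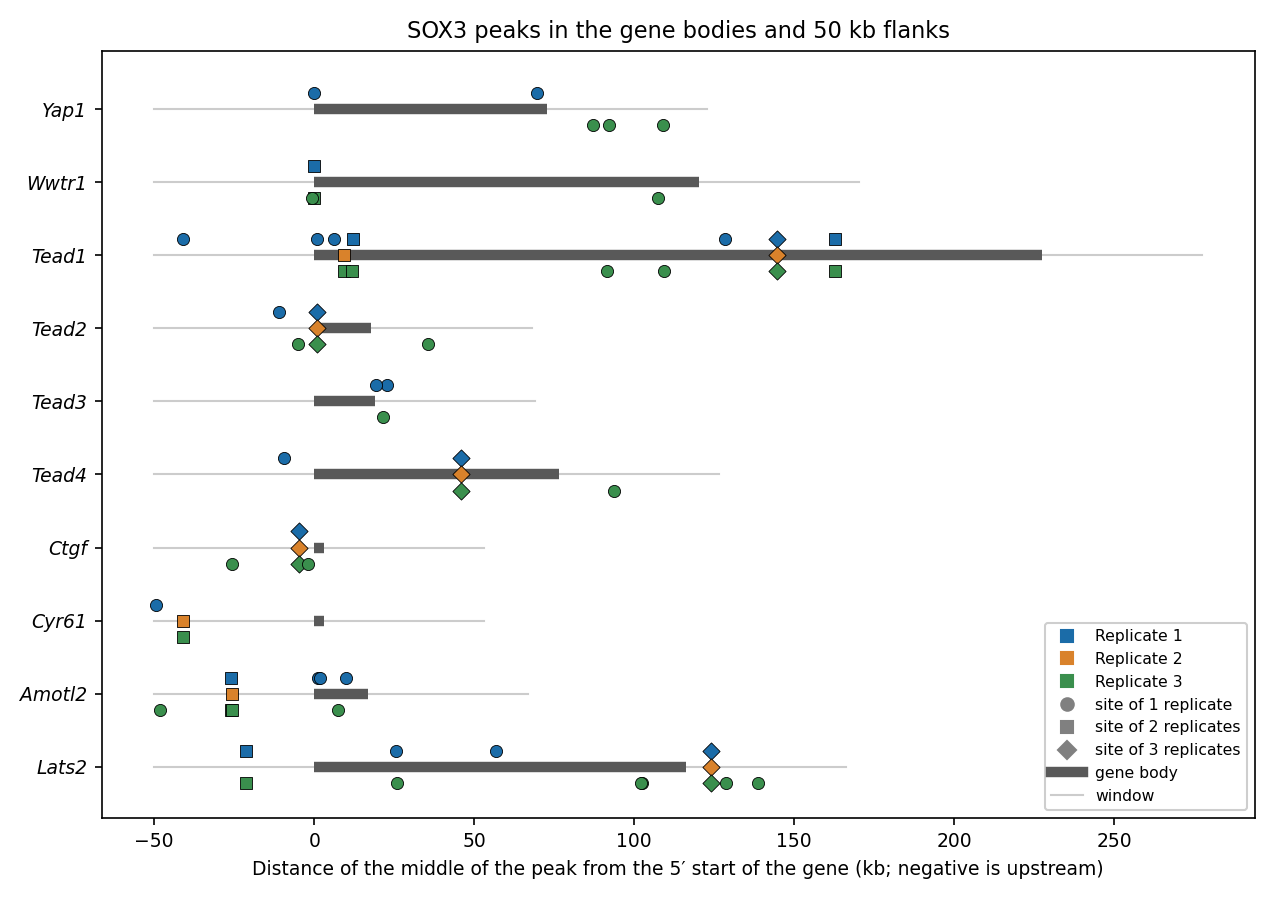
SOX3 peaks in the windows of the 10 genes, 1 row per gene. The horizontal axis is the distance of the middle of a peak from the gene's 5' start in kb (negative is upstream), thick bars are gene bodies, thin lines are windows, colours are replicates, and circles, squares and diamonds mark peaks of sites with 1, 2 and 3 replicates. Diamonds stand at Tead1, Tead2, Tead4, Ctgf and Lats2, and the peaks near 26.0 kb upstream of Amotl2 come from all 3 replicates without forming 1 site.

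Yap1 (ENSMUSG00000053110) encodes the coactivator YAP and spans positions 7931999 to 8004596 of chromosome 9 (minus strand). Its window had 2 peaks in replicate 1, none in replicate 2 and 3 in replicate 3, and no peak of 1 replicate met a peak of another. The peak at its promoter, with its middle 47 bp upstream of the start, was in replicate 1 only, with a score of 52.8, higher than 8.74% of that list. A replicate 1 peak in intron 8 had a score of 154.86, above 78.7% of its list, and 62.5% of its 50-base words occur more than once in the genome. The 3 peaks of replicate 3 lay past the 3' end of Yap1, nearer to the start of Birc3, and the highest of them had a score of 102.7, above 82% of its list. The closest site of every replicate was 454.8 kb upstream, next to Trpc6, and 80.6% of protein-coding genes had one closer to their start.

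Wwtr1 (ENSMUSG00000027803) encodes TAZ, the paralogue of YAP, and spans positions 57259571 to 57379832 of chromosome 3 (minus strand). Its promoter had a site 133.5 bp upstream of the start with peaks in replicates 1 and 3, with scores of 53.27 and 68.79. Those values were higher than 10.9% and 58.8% of their lists, so the replicate 1 peak was only just above the threshold. A separate peak of replicate 3 lay 650.5 bp upstream with a score of 62.5, and another in intron 4 had a score of 51.73. The promoter stretch shown above contains the SOX word GACAAA and a TEAD word. The closest site of every replicate was 1081.8 kb from the start, near Nbea, and 95.2% of genes had a closer one, which placed Wwtr1 last of the 10.

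The TEAD genes encode the DNA-binding partners of YAP and TAZ. Tead1 (ENSMUSG00000055320) spans positions 119822832 to 120050319 of chromosome 7 (plus strand). It held the most peaks and by far the strongest site of the group. Its window of 327.5 kb had 15 peaks in 10 sites. The site of every replicate lay in intron 2, 144508 bp from the start, at chr7:119967078-119967601. Replicates 1, 2 and 3 scored it at 1215.91, 855.54 and 1957.86. Their ranks were 108 of 18816, 66 of 8096 and 52 of 40543, so that all 3 lists placed it in their top 1%. Even among sites of every replicate it exceeded 98%, 98.8% and 99.0% of the others. The next highest of the members' peaks within its own list, at 95.8%, was the replicate 3 peak in the Lats2 window.

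The printed stretch of this site has AACAAT on the minus strand, then ATGCAAAT after 11 bases, and later GACAAT on the minus strand. Tead1 also had 3 sites of 2 replicates. A site 9339.5 bp from the start, in intron 1, was shared by replicates 2 and 3, which began at the same base, with scores of 81.14 and 149.64. A second, 12054 bp from the start and 326 bp from another annotated start of Tead1, had scores of 181.93 in replicate 1 and 110.24 in replicate 3. The gap between these neighbours was 2284 bases, and replicate 2 was missing from one and replicate 1 from the other. The third lay 162694 bp from the start, covered coding exons of Tead1, and had scores of 125.17 in replicate 1 and 77.63 in replicate 3. The remaining 6 sites had 1 replicate each, and the highest of them was a replicate 1 peak in intron 1, 6117 bp from the 5' start, with a score of 227.44. Among the 317 genes with windows within 10% of the length of Tead1's, the median was 5 sites of any replicate, and 40.1% had a site of every replicate.

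Tead2 (ENSMUSG00000030796), the TEAD gene long known for its expression in early embryos and neural precursors, occupies chromosome 7 between 52471123 and 52489005 (plus strand). It was the only member with a site of every replicate within 2000 bp of a start, and 4.96% of all genes had one there. The site, at chr7:52471804-52472235, had its middle 896.5 bp from the 5' start and 23.5 bp from another annotated start, and it overlapped an untranslated exon. Its scores were 249.77, 68.77 and 91.61 in replicates 1, 2 and 3. They exceeded 89.1%, 37.8% and 77.5% of the lists, so the site was high in replicate 1 and below the middle of the list in replicate 2. Among the sites of every replicate they exceeded 65.6%, 20.8% and 11.9%. With score 100 or more, equal numbers of peaks, or overlaps of at least 50% of both peaks, Tead2 had no such site. The other 3 peaks in its window were in 1 replicate each, and lay closer to the starts of Ccdc155, Dkkl1 and Cd37.

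Tead4 (ENSMUSG00000030353), known for its part in the trophectoderm, occupies chromosome 6 between 128174306 and 128250841 (minus strand). Its site of every replicate was in intron 2, 45986.5 bp from the start, at chr6:128204692-128205017. The scores were 88.4, 68.5 and 80.11 in replicates 1, 2 and 3, which exceeded 57.2%, 37.5% and 70.6% of the lists. Compared with the other sites of every replicate it was weak, above only 18.7%, 20.5% and 7.20% of them. No peak lay within 2000 bp of a start of Tead4.

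Tead3 (ENSMUSG00000002249) occupies chromosome 17 between 28468616 and 28487750 (minus strand). It was the TEAD gene without a site of more than 1 replicate. It had 2 peaks in replicate 1, with scores of 66.07 and 145.34, and 1 in replicate 3, with a score of 70.02. All 3 lay at or past its 3' end and were nearer to the start of Rpl10a, a ribosomal protein gene. The closest site of every replicate was 217.0 kb from its start, near Clps, and 60.1% of genes had a closer one. The TEAD family thus ranged from a site in the top 1% of all lists to none shared by any pair of replicates.

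**Figure D2:**
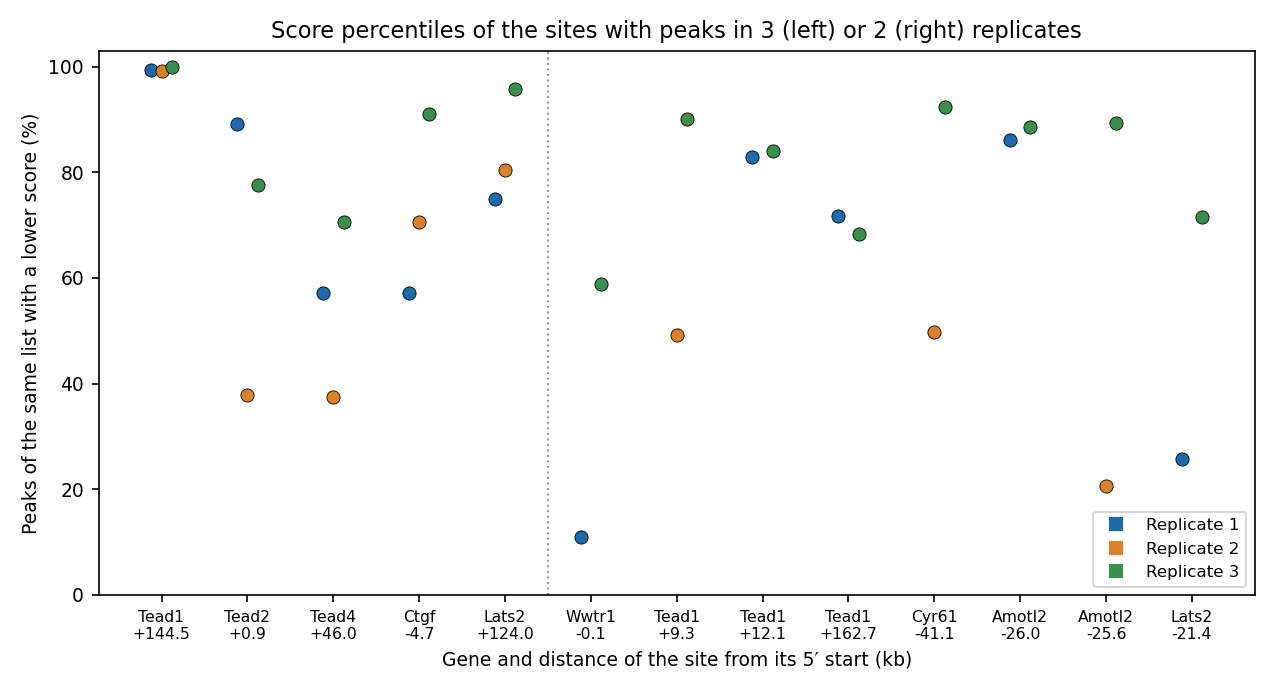
Percent of peaks in the same list with a lower score (vertical axis) for each peak of the 5 sites with 3 replicates (left of the dotted line) and the 8 with 2 (right), labelled by gene and distance from its start in kb and coloured by replicate. The Tead1 intron 2 site stands at 99.4%, 99.2% and 99.9%, and the other peaks spread from 10.9% at the Wwtr1 promoter to 95.8% in the Lats2 window.

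Among the targets, Ctgf (ENSMUSG00000019997), also called Ccn2, is the gene most often used to read YAP activity. It is found on chromosome 10 between 24315248 and 24318489 (plus strand). Its site of every replicate was intergenic by the 2000 bp limit used here, 4664 bp upstream of the start, at chr10:24310428-24310740, and Ctgf was its nearest gene. The authors class their peak there as promoter and list Ctgf with the bound genes changed in Sox3 null cells. The scores were 88.34, 121.83 and 159.93 in replicates 1, 2 and 3. They exceeded 57.1%, 70.6% and 91.0% of the lists, and 18.6%, 57.5% and 40.1% of the sites of every replicate. The Ctgf site was therefore of middling strength, and in each replicate its score was far below that at Tead1. Only 5.29% of genes had a site of every replicate closer to their start, so by distance it followed Tead2 and preceded the other 8 members. Replicate 3 alone added a peak 1803.5 bp upstream with a score of 53.77 and another 25760 bp upstream with a score of 63.25. The nearer of these held the SOX word AACAAT and a TEAD word, and neither had a partner in another list.

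Cyr61 (ENSMUSG00000028195), also called Ccn1, the close relative of Ctgf, is found on chromosome 3 between 145309935 and 145312949 (minus strand) and had no peak within 2000 bp of its start. Its site of 2 replicates was 41078 bp upstream, with scores of 81.78 in replicate 2 and 180.13 in replicate 3. It belonged to the pair of lists that share peak starts, and replicate 1 had no peak there. The other peak, of replicate 1, had a score of 60.66, and 66.2% of its 50-base words occur more than once in the genome. The closest site of every replicate was 631.9 kb away, near Clca3.

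Amotl2 (ENSMUSG00000032531) encodes an angiomotin that binds YAP, and spans positions 102619002 to 102635748 of chromosome 9 (plus strand). It had the densest peaks of the members, with 9 peaks in 7 sites and 6 sites per 100 kb, compared with 2.77 over all genes. None was a site of every replicate. Near 26.0 kb upstream, all 3 replicates had a peak close by, but not at a base that all 3 shared. The site 26030 bp upstream had scores of 211.87 in replicate 1 and 134.91 in replicate 3, and the one 25645.5 bp upstream had scores of 57.28 in replicate 2 and 142.27 in replicate 3. A gap of 29 bases kept them apart. Their shared stretches, at chr9:102592813-102593071 and chr9:102593318-102593508, are given here because the count for Amotl2 rests on that gap.
Amotl2 distal: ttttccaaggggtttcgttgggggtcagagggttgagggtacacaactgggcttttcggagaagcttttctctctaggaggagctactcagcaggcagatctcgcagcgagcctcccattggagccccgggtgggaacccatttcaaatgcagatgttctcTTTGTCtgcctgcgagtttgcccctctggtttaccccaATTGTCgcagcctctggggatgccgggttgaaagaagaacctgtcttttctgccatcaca
Amotl2 proximal: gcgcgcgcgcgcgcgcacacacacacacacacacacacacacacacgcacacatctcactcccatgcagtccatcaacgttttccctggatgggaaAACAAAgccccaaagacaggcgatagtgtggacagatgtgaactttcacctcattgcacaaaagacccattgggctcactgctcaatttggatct
The distal stretch has 2 SOX words on the minus strand, and the proximal one has an AACAAA after a run of alternating C and A. Around the annotated starts of Amotl2, replicate 1 alone had peaks with scores of 246.1, 72.3 and 186.39, and replicate 3 alone had one with a score of 63.7. Amotl2 thus had peaks near its starts in single lists only, and the strongest of those peaks, above 88.8% of its list, had no partner in the other replicates.

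Lats2 (ENSMUSG00000021959) encodes a kinase that phosphorylates YAP. The annotation places it on chromosome 14 between 58260914 and 58377225 (minus strand), but its protein-coding transcripts reach down only to 58308499, their 3' end, since 1 transcript of another type runs on into Xpo4. The window held 12 peaks in 9 sites. The site of every replicate, at chr14:58253043-58253418, lay in an intron of Xpo4, a nuclear export receptor gene, 124.0 kb from the Lats2 start and 14263.5 bp from the Xpo4 start. Its scores were 137.18, 162.47 and 270.15 in replicates 1, 2 and 3, above 75.0%, 80.5% and 95.8% of the lists. After Tead1 it was the member site with the highest score in replicates 2 and 3. Measured from the coding transcripts of Lats2 it was 55.1 kb away, outside the 50 kb flank, and with coding transcripts alone the members with a site of every replicate numbered 4 and the targets 1.
A site of replicates 1 and 3 lay 21.4 kb upstream of Lats2, with scores of 58.12 and 81.74, and was nearer to the start of Sap18. Inside the coding part of the gene, peaks were in single lists, with scores of 55.57 and 124.55 in replicate 1 and 123.35 in replicate 3. All 3 were within 2000 bp of an annotated start of Lats2, and those of 55.57 and 123.35 were next to each other.

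**Figure D3:**
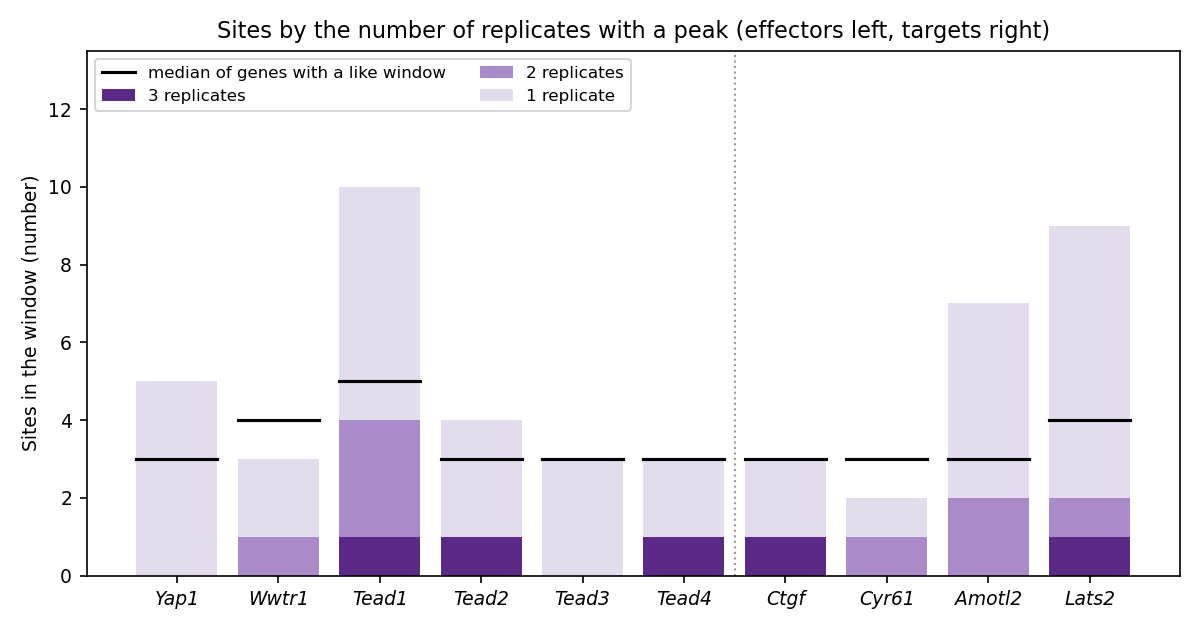
Number of SOX3 sites in the window of each member (vertical axis, stacked by the number of replicates with a peak), effectors left and targets right of the dotted line. Black lines are the medians of sites of any replicate over genes whose windows are within 10% of the same length; Yap1, Tead1, Tead2, Amotl2 and Lats2, with 5, 10, 4, 7 and 9 sites, stand above medians of 3, 5, 3, 3 and 4, Wwtr1 and Cyr61 stand below theirs, and Tead3, Tead4 and Ctgf are level with theirs.

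Taken by role, 3 of the 6 effectors and 2 of the 4 targets had a site of every replicate, beside 28.8% of all genes, and 4 effectors and all 4 targets had a site of at least 2 replicates, beside 46.4%. The order of the groups changed with the setting: with equal numbers of peaks per list 1 effector and 2 targets had a site of every replicate (21.9% of all genes), with gene bodies alone 3 and 0 (8.83%), and with coding transcripts alone 3 and 1 (28.7%). Per 100 kb of window the effectors held 0.617 sites of at least 2 replicates and 2.47 of any replicate, compared with 0.616 and 2.77 over all genes. The targets held 1.11 and 3.89. The 2 Lats2 sites, which are nearer to other genes, are among the 6 target sites behind the first value. So are the 2 Amotl2 sites, which lie 29 bases apart, and the Cyr61 site. The Cyr61 site and 1 of the Amotl2 sites had peaks in replicates 2 and 3 only. Peaks of any replicate lay within 2000 bp of a start of 7 members (all but Tead3, Tead4 and Cyr61), compared with 30.3% of all genes. Several members have many annotated starts, with 13 for Amotl2, 12 for Tead2 and 11 for Tead1, which widens the sequence searched.

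Most peaks at the members were in 1 list. Of the 49 sites, 16 were in replicate 1 alone (32.7%, beside 20.7% of all sites), 20 in replicate 3 alone (40.8%, beside 58.7%) and 0 of them in replicate 2 alone (beside 0.382%). A further 8 had 2 replicates. Of these, 5 paired replicates 1 and 3 (10.2% of the members' sites, beside 4.95% of all sites) and 3 paired replicates 2 and 3 (6.12%, beside 4.59%). The 5 sites of every replicate were 10.2%, beside 10.5%. The median score of the replicate 1 peaks was 71.9 at the single-list sites, 125 at sites of 2 replicates and 137 at sites of every replicate (16, 5 and 5 peaks). Over the whole list those medians were 62.8, 84.1 and 174. The members' peaks followed the same order as the list, with a higher median in the class of 2 replicates and a lower one in the class of every replicate. For replicate 2, with no single-list site at the members, the medians at sites of 2 replicates and of every replicate were 81.1 and 122. They rest on 3 and 5 peaks only, and both lay above the 59.6 and 107 of the list. For replicate 3 the members' medians were 62.1, 123 and 159.9 (20, 8 and 5 peaks), and those of the list 59.2, 86 and 185. 6 of the 49 sites were mostly made of 50-base words with more than 1 copy in the genome, and all 6 were in 1 replicate. Of all sites of every replicate, 14.7% were of that kind and none of the members' 5.

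The word content of the sites was compared with that of all sites and their surroundings. All 5 sites of every replicate at the members had a SOX word, and 7 of the 8 sites of 2 replicates did, the exception being Cyr61. Over all sites of every replicate the share was 78.2% (95% interval 77.1 to 79.3, n = 5356), and in windows of equal width 2000 bp away it was 68.8%. In the 200 bp around the middle of a site the shares were 65.5% and 44.9%, and all 5 member sites had a SOX word there too. These short words are common in the flanks as well, and 5 sites are too few to set the members apart from all sites. POU octamers are rarer, at 11.6% of all sites and 4.30% of the flanking windows. They were present in the sites of every replicate at Tead1 and Tead4, and in the intron 1 site of Tead1 that replicates 2 and 3 shared. A SOX word within 20 bp of an octamer was found in 2.99% of all sites and 0.570% of flanks. Both the Tead1 and the Tead4 sites had that arrangement, with 11 bases between the words at Tead1 and 1 shared base at Tead4. An overlap by 1 base was found in 3 of the 5356 sites. This spacing was looked at after the member sites had been seen. The pairs were counted in either order. Read along the strand of the octamer, the SOX word came before the octamer at Tead1 and after it at Tead4. Neither pair had the spacing that the paper describes for its paired SOX and POU sites. SOX and POU factors are known to bind composite sites in progenitors, but whether either pair is such a site was not tested. A match of letters does not show binding.

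The TEAD word GGAATG was in none of the 5 sites of every replicate, and in 6 of the 36 sites of 1 replicate. Of the sites of 2 replicates, it was in those at the Wwtr1 promoter and at Tead1, 162694 bp from the start, and the Cyr61 site was left out of this description. Of all sites of every replicate 26.4% had it, and 21.9% of flanking windows. The share over all sites of 1 replicate was not computed, so the 6 of 36 has no like value beside it. The absence of these letters from a window says nothing of TEAD binding there.

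The rest of the pathway was described with a list of 51 further genes, of which 50 matched the annotation. Of 23 core kinases and upstream regulators, 8 had a site of every replicate (34.8%), as did 1 of 8 TEAD cofactors and other YAP partners (12.5%) and 9 of 19 further YAP and TEAD target genes (47.4%). Together 18 of 50 did, which is 36.0% beside the 28.8% of all genes. Among the regulators, Nf2, whose product Merlin activates the cascade, had 2 such sites, the closer 0.1 kb from its start with scores of 116, 177 and 264 in replicates 1, 2 and 3. Limd1, a LIM protein that binds LATS, also had 2, and the closer had scores of 618, 259 and 1137. Map4k4, a kinase that can phosphorylate LATS, had 3, and Ptpn14, which binds YAP, had 2. Stk3 (the gene of MST2), Wwc1 (the gene of KIBRA), Wwc2 and Rassf1 had 1 each. Some of these sites were nearer to the start of another gene: 1 of the 2 at each of Nf2, Limd1 and Ptpn14, and the 1 at Rassf1.

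Among the target genes, Nuak2 had 4 such sites, and the closest, 6.7 kb from its start, had scores of 703, 447 and 999. Myof and Rbms3 had 3 each, Gadd45a and Nt5e had 2 each, and Ankrd1, Asap1, Dock5 and Fjx1 had 1 each. The sites of Asap1, 300.5 kb from its start, and of Dock5, and 2 of the 4 at Nuak2, were nearer to the start of another gene. For Nuak2 and Limd1 the scores in every replicate were higher than at Ctgf and lower than at Tead1. The window of Rbms3 is 1157.2 kb long, and that of Fjx1 102.4 kb, so the counts are not per length. A peak of some replicate lay in the windows of 44 of the 50 genes, beside 90.6% of all genes. None was found in those of Mob1a, Fat4, Vgll1, Areg, Igfbp3 and Ccdc80.

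**Figure D4:**
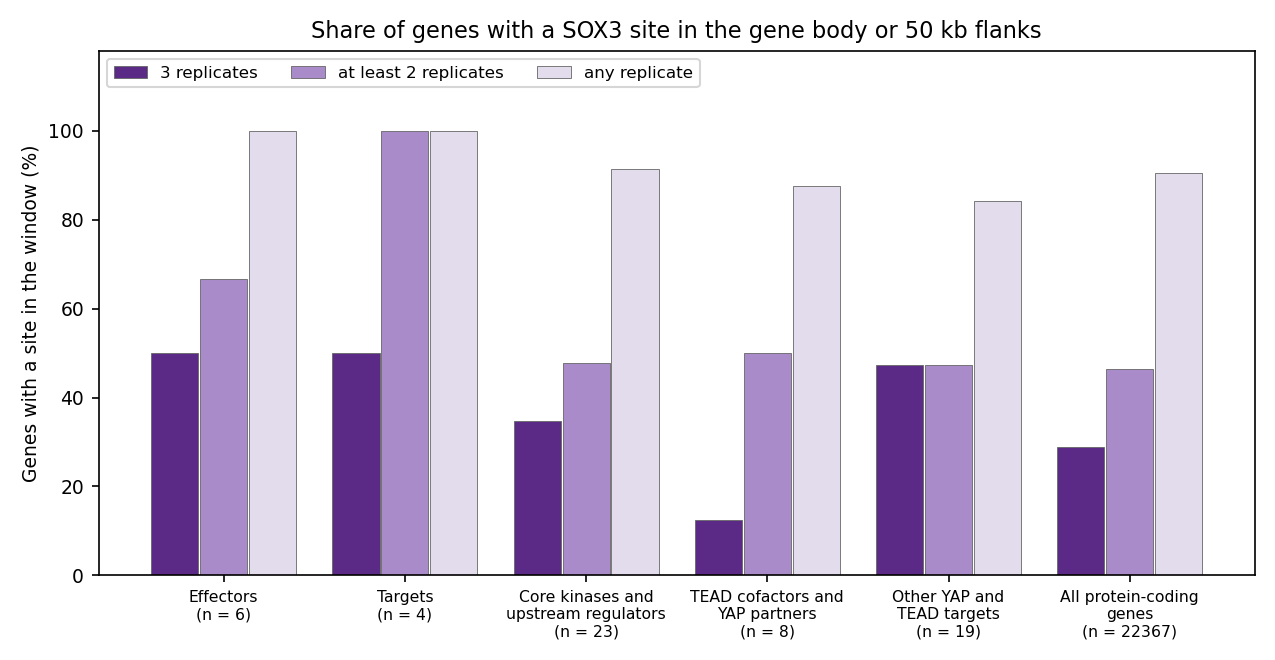
Percent of genes with a SOX3 site in their window (vertical axis, from 0) for the effectors, the targets, each list of further pathway genes and all 22367 protein-coding genes. Dark, middle and light bars count sites of 3 replicates, at least 2 and any; the dark bars stand at 12.5% for the cofactors, 34.8% for the regulators and 47.4% for the further targets, beside 28.8% for all genes. The effectors stand at 3 of 6 genes and the targets at 2 of 4, and with coding transcripts alone the targets stand at 1 of 4.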

How the data were processed

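SOX3 ChIP-seq was made from NP cells in 3 biological replicates. The authors aligned reads to mm9 with Bowtie 1.0.0, per the labels, called peaks with MACS in each replicate against the input, and deposited 1 list per replicate whose score is 10 times -log10 of the peak's p-value (50 for 1e-05). The lists hold no counts, so depth is not given in the sources used here and no interval on binding could be made. The intervals on shares are 95% Wilson intervals, which cover counting error over sites only.

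Peaks overlapping by at least 1 bp were merged into sites. Genes came from a GENCODE annotation on mm9, with protein-coding genes of the nuclear chromosomes as background. Promoters are the 2000 bp to either side of any annotated start. Distances run from the gene's 5' start to the middle of a site. Words were searched exactly on both strands in each site and in windows of its width 2000 bp away, and 50-base words with more than 1 exact copy in the genome on either strand were counted. Scripts used Python 3.11.15, numpy 2.4.6, scipy 1.17.1, pysam 0.24.0, numba 0.67.0 and matplotlib 3.10.9. They were tested on simulated data, and 3037 of 3037 planted sites and 14 of 14 planted words were found. No test was run.

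The members and the pathway lists were chosen with earlier results of these data known. All 10 members were named with each site of at least 2 replicates, and other pathway genes if they had a site of every replicate, at most 10 per list (1 gene and the sequence of 1 site are not reported here), with neighbours where they were nearest to such a site. Genes without a peak, the single-replicate peaks given with values and their neighbours, and the spacing of SOX and POU words were chosen after their values were seen. Alternatives changed the score threshold, the number of peaks per list, the definition of a site, the flank and the replicates used.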

Additional observations from a re-analysis of the deposited data

How the results depend on the processing

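Of 94 values recomputed under other settings, 65 stayed within 1.5 times the value reported and 29 did not. With peaks of score 100 or more, 2 members had a site of every replicate (2 sites, both with a SOX word, 1 effector and 1 target, 1 site with a member as its nearest gene), 19 sites of any replicate were left, and the share of all genes was 15.2%. With the 8096 highest peaks of each list, 3 members had one (3 sites, all with a SOX word, 1 effector, 2 sites nearest to a member), and 20 sites of any replicate were left. With gene bodies alone, 3 members had one (3 sites with a SOX word, 0 targets), 24 sites of any replicate were left and the share of all genes was 8.83%. With a flank of 10 kb 5 members had one, beside 14.1% of all genes, and with a flank of 100 kb 5 did, beside 42.2%. The contrast with all genes thus depended on the flank. With coding transcripts alone, chosen after seeing the data, 1 target had one. With overlaps of at least 50% of both peaks, 4 members had one (2 of them effectors), beside 26.0% of all genes. Leaving out each replicate in turn gave 5 to 10 sites shared by the other replicates at the members, 5 to 10 of them with a SOX word, 4 to 8 nearest to a member, 2 to 4 targets, and 29 to 49 sites of any replicate. Without replicate 1 there were 8 such sites, 7 of them nearest to a member, and 4 targets, without replicate 2 there were 10 sites, 8 of them nearest to a member, and without replicate 3 there were 29 sites of any replicate. The share of all genes with a site of the replicates left was 37.3% without replicate 1, 39.4% without replicate 2 and 29.4% without replicate 3. Over the 11 alternatives Tead1 had a site in 11, Lats2, Tead4 and Ctgf in 9, Tead2 in 8, Amotl2 in 2, Wwtr1 and Cyr61 in 1, and Yap1 and Tead3 in 0. No paired analysis was possible because the result comes from no test.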
